A study of Homo sapiens with 4 samples.

Results

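The 9 genes described here encode receptors of the nuclear receptor family and a protein that silences their targets. They were chosen by name, with earlier results of these data known. All 9 were matched by Ensembl identifier in a table of 17656 genes from U937 cells, a human monocytic leukemia line in long use. They are the retinoic acid receptors RARA and RARG, the retinoid X receptor RXRB, the vitamin D receptor VDR, the glucocorticoid receptor NR3C1, the orphan receptors NR4A1, NR4A2 and NR4A3, and the corepressor NCOR1. RNA from 4 libraries was sequenced. The 2 NC libraries are controls that the labels describe as untreated, and the other 2 carry the label sh-ZNF217 and are described as having ZNF217 knocked down, a zinc finger factor known to recruit corepressors. The labels name no further agent or time and do not name the hairpin. The column names hold D4 in every library and ZNFS1 in the sh-ZNF217 ones, and the labels explain neither D4 nor S1. They also do not say whether the libraries within each group stem from separate cultures. The p-values below therefore measured only the spread between these libraries, which may be technical. The study's list of its data also names a knockdown, while its account of the RNA-seq results speaks of CRISPR knockout cells.

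Nuclear receptors are transcription factors that bind short DNA words through zinc fingers and change their activity when a small lipid-soluble ligand enters them. The retinoic acid and vitamin D receptors bind DNA as pairs with a retinoid X receptor, and without ligand they hold corepressors such as NCOR1 at their targets. Retinoic acid and vitamin D are both known to push immature myeloid cells toward maturity, and U937 cells have long been used to study this. The NR4A receptors have no known classical ligand and are induced within minutes by growth factors, cyclic AMP and stress, as immediate early genes are.

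Values were given in TPM, which is corrected for transcript length and scaled to a common library total, so levels of different genes can be set side by side. The table names no unit, and order of levels between genes rests on reading it as TPM. TPM keeps no record of read number, so the depth was unknown. The libraries summed to between 998932 and 999282 TPM and held 14080 to 14421 genes at 1 TPM or more. The median absolute log2 difference between libraries was 0.122 and 0.128 within the groups and 0.243 to 0.253 across them. ZNF217 itself was at 36.1 and 36.7 TPM in NC and at 35.8 and 34.97 TPM in the sh-ZNF217-labelled libraries (log2 fold change -0.04, limma adjusted p = 0.74). The 95% interval of this difference was -0.22 to 0.14. Since the transcript did not mark the knockdown in these libraries, each direction below follows the label and the wording sh-ZNF217-labelled is used throughout. By qRT-PCR and Western blot, assays apart from these libraries, the study reported less ZNF217 mRNA and protein with its hairpins in AML cell lines. Of the markers of myeloid cells, SPI1 lay between 316 and 356 TPM and LYZ between 3256 and 5511 TPM, while MPO was at most 0.513 TPM. The summed level of 16 myeloid markers was 4850 to 4854 TPM in NC and 7083 to 7177 TPM in the sh-ZNF217-labelled libraries, and most of this difference was LYZ (mean 3263 and 5419 TPM). Of 15 myeloid markers tested 53.3% were called, beside 8.72% of all tested genes. Of these markers 5 were called higher, among them ITGAM (log2 fold change 1.38). The 3 called lower were the neutrophil granule protease genes PRTN3 (-1.39) and ELANE (-0.79) and their relative AZU1 (-0.75). The summed level of the T and NK markers (3 of 9 matched) was 70.1 to 87.1 TPM against 102 to 113 TPM and was mostly NKG7. Among them CD2 was called higher (log2 fold change 1.20, limma adjusted p = 0.0308). The B markers (3 of 7 matched) summed to 5.51 to 10.7 TPM against 4.45 to 7.06 TPM, and PAX5 was called lower (-0.80, limma adjusted p = 0.0458). The erythroid and megakaryocyte markers (2 of 10) summed to 4.31 to 5.50 TPM against 3.55 to 7.06 TPM, and the epithelial and fibroblast markers (1 of 9) to 0.777 to 1.21 TPM against 1.10 to 1.40 TPM. The part of these markers in the results below was not tested.

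The DNA just before a listed start of 3 members is shown. RARG was taken as the member that was called changed and RARA as its closest relative here. NR4A3 was taken because its window holds the word bound by cyclic AMP responsive factors. The sequences are those of RefSeq on GRCh38.p14 and run from 250 to 51 bases before a listed start, 5′ to 3′ on the gene's strand. Capitals mark the words AGGTCA or AGTTCA (the core to which retinoid and related receptors bind) and TGACG (the core of the cyclic AMP response element), each searched on both strands.
RARG, chr12:53232260-53232459, minus strand: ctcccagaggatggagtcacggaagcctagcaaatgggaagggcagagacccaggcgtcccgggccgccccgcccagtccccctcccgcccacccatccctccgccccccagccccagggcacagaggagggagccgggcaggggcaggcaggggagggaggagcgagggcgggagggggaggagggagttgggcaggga
RARA, chr17:40308930-40309129, plus strand: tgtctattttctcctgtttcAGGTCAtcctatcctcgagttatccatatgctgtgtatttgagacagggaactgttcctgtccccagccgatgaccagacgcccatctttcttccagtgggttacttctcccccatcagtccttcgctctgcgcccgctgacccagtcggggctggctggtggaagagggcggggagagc
NR4A3, chr9:99821635-99821834, plus strand: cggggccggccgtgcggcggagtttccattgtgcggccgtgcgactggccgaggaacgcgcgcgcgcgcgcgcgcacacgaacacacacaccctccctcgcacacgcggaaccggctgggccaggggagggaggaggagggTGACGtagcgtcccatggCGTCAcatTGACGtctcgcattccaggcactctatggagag
The window of RARG held none of these words. It lies inside the annotated gene (53210567 to 53232980), since the listed RefSeq start is downstream of the gene's outermost annotated start. DNA upstream of that outermost start was not searched for RARG. The window of RARA held AGGTCA 230 bases before the start, and the other 2 of its 3 windows held none. That of NR4A3 held TGACG 3 times, at 109, 91 and 83 bases before the start, the match at 91 on the opposite strand. AGGTCA lay in 9.67% of all 34943 windows of this length, AGTTCA in 7.31% and TGACG in 15.9%. The complete response element TGACGTCA, which contains TGACG, lay in 0.947% of all windows, and AAAGGTCA, the word to which NR4A proteins bind and which contains AGGTCA, in 0.821%. Neither was found in the 18 windows listed for 7 of the 9 members. Of the other members with a window, NR3C1 held AGTTCA in 2 of 7 windows and TGACG in 1, and RXRB, NR4A1 and NCOR1 held none of the words. A match is a description of letters and not a bound site, and absence says only that the letters are not in this window.

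The receptors spanned a wide range of levels in these cells. In NC, RARA (mean 45.2 TPM) and NCOR1 (44.9 TPM) were the most abundant members, followed by VDR (30.5 TPM), NR3C1 (26.3 TPM), NR4A1 (12.3 TPM), RARG (6.09 TPM), RXRB (3.45 TPM), NR4A2 (2.88 TPM) and NR4A3 (0.0801 TPM). Neighbours in this order whose libraries overlapped were RARA with NCOR1 and RXRB with NR4A2, and the other neighbours did not overlap. The same order of means held in the sh-ZNF217-labelled libraries. There RARA still overlapped with NCOR1, and NR4A1 (12.4 TPM) overlapped with RARG (10.04 TPM), which it had not done in NC.

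**Figure D1:**
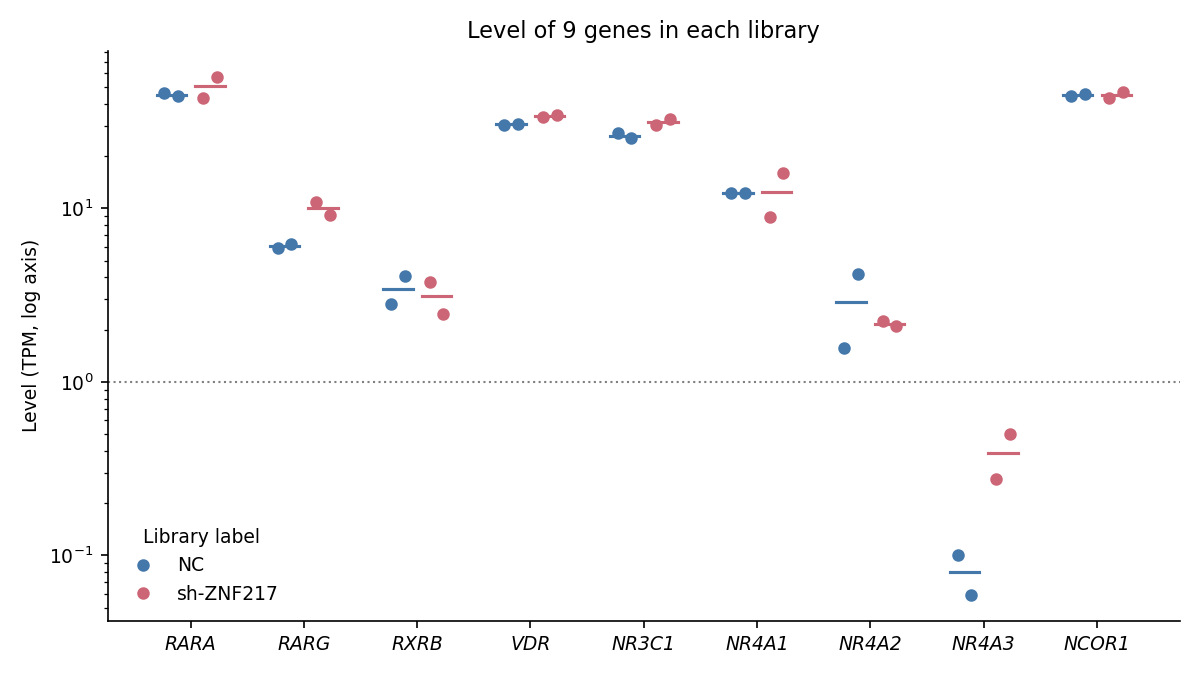
Level in TPM on a log axis of the 9 genes, with 1 point per library and a short line at each group mean, for NC (blue) and the sh-ZNF217-labelled libraries (red), and a dotted line at 1 TPM. RARA and NCOR1 lie near 45 TPM in NC, RARG goes from 5.91 and 6.28 to 10.9 and 9.17 TPM, and NR4A3 stays below 1 TPM in all 4 libraries.

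The main comparison asked which members differed between the sh-ZNF217-labelled libraries and NC. RARG, a retinoic acid receptor, was higher, and the other 7 tested members did not pass. NR4A3 was too low to be tested. RARG was at 5.91 and 6.28 TPM in NC and at 10.9 and 9.17 TPM in the sh-ZNF217-labelled libraries. Both of the latter lay above both NC libraries, a 1.65-fold difference of mean TPM (6.09 ± 0.260 against 10.04 ± 1.22 TPM, SD, n = 2 per group). The log2 fold change of TPM + 1 was 0.63 (standard error 0.15, 95% interval 0.27 to 1.00), with a limma adjusted p of 0.0402. To be called, a gene needed a log2 fold change beyond 0.5 in either direction together with an adjusted p below 0.05. In bulk RNA, a change in the share of cells with a transcript and a change of its amount per cell cannot be told apart.

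The count of calls among the members was near the background. The 1 member called of 8 tested was 12.5%, while 8.72% of all 14582 tested genes were called, 6.26% as higher and 2.46% as lower. Of the members 1 was called higher and 0 lower by limma, and at an unadjusted p below 0.05, with no fold minimum, 2 were higher (RARG and NR3C1) and 0 lower. Both sh-ZNF217-labelled libraries lay above both NC libraries for 3 of the 8 tested members (RARG, VDR and NR3C1), as they did for 33.5% of all tested genes, and below them for 0 members, against 28.6% of all tested genes. The median log2 fold change of the 8 was 0.07, against 0.02 over all tested genes.

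**Figure D2:**
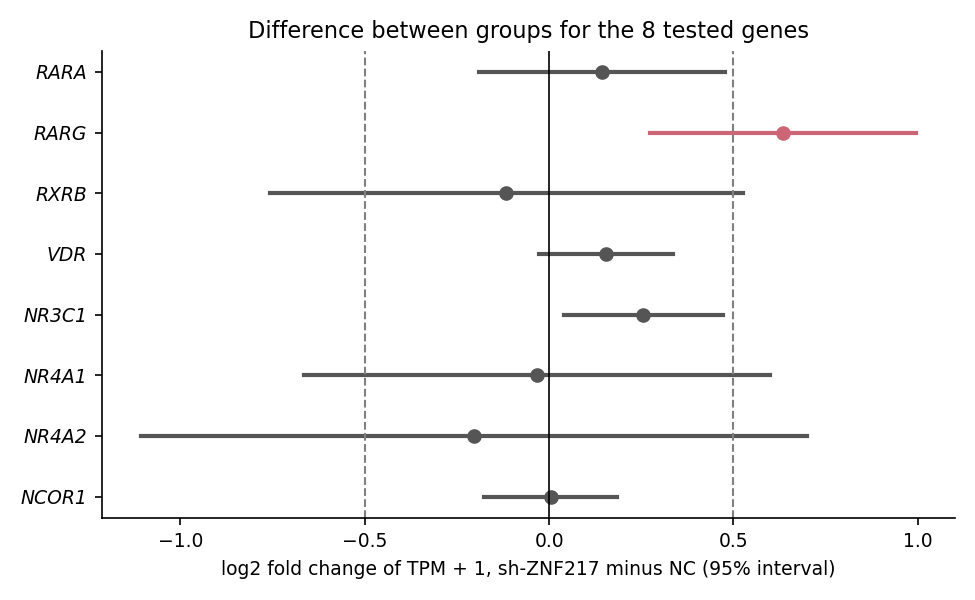
Log2 fold change of TPM + 1, sh-ZNF217-labelled libraries minus NC, with the 95% interval of limma for the 8 tested genes, and dashed lines at -0.5 and 0.5. RARG (red, 0.63) is the called member, and the intervals of RARA, VDR, NR3C1 and NCOR1 stay within the dashed lines while those of RXRB, NR4A1 and NR4A2 cross both.

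The call of RARG was close to its threshold and rested on all 4 libraries. It was lost without NC replicate 1 (log2 fold change 0.60, limma adjusted p = 0.121), NC replicate 2 (0.67, 0.0835), sh-ZNF217 replicate 1 (0.52, 0.149) or sh-ZNF217 replicate 2 (0.75, 0.0815). It was also lost with plain empirical Bayes moderation, which takes neither a trend of the spread with level nor outlying genes into account (limma adjusted p = 0.065). Under the other 6 alternatives that keep all libraries unblocked it was called, at limma adjusted p values from 0.0184 with protein-coding genes alone to 0.0486 with no filter on low values. RARG (ENSG00000172819) lies on chromosome 12 (53210567 to 53232980, minus strand, hg38), is protein-coding and shares no exon bases with another annotated gene.

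**Figure D3:**
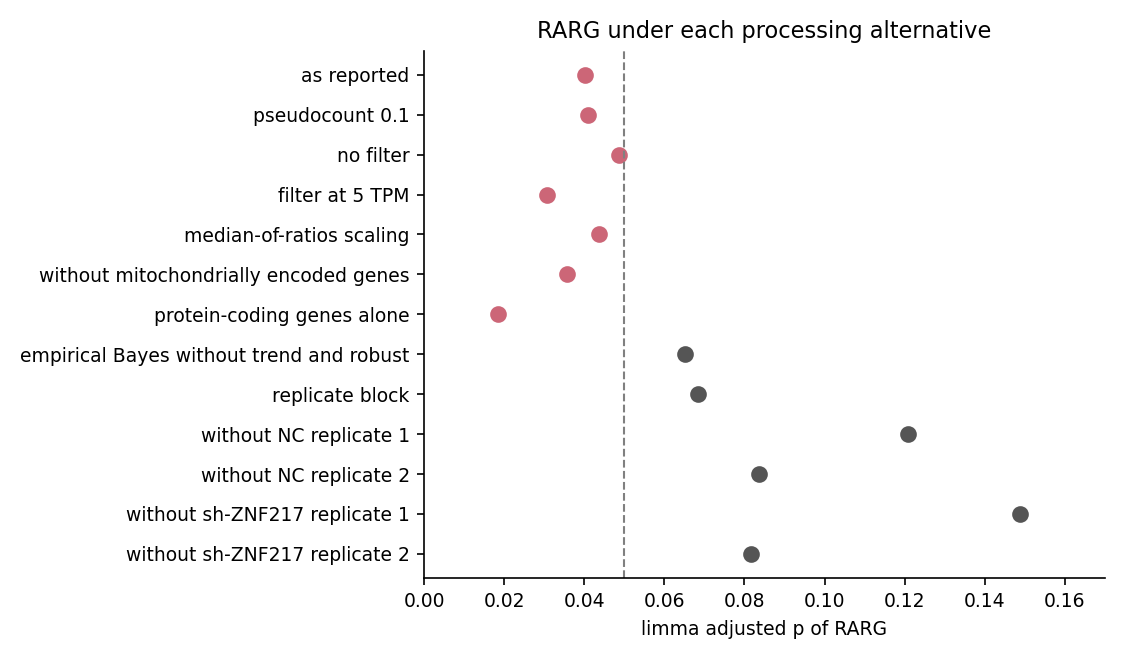
Limma adjusted p of RARG on the x axis for the reported comparison and each alternative on the y axis, with a dashed line at 0.05 and red points where RARG was called. The value is 0.0402 as reported and lies above 0.05 in all 4 comparisons that leave out a library.

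RARA, the retinoic acid receptor that is fused to PML in acute promyelocytic leukemia, was at 45.99 and 44.4 TPM in NC and at 43.6 and 57.5 TPM in the sh-ZNF217-labelled libraries. The groups overlapped, since sh-ZNF217 replicate 1 was the lowest of the 4 libraries and replicate 2 the highest. The log2 fold change was 0.14 (standard error 0.13, 95% interval -0.19 to 0.48, limma adjusted p = 0.499), and it turned to -0.05 without sh-ZNF217 replicate 2. RARG made up 11.4% and 12.4% of the summed TPM of RARA and RARG in NC and 20.02% and 13.8% in the sh-ZNF217-labelled libraries. These shares do not depend on how a library is scaled. They did not overlap between the groups, though the lower of the latter pair lay close to NC. RARA shares exon bases with genes on the opposite strand, and it is not known whether counting used strand, so the shares were uncertain. RARB, the remaining retinoic acid receptor, had no matched row and was not analysed here.

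RXRB, a partner with which RAR and VDR bind DNA, was at 2.83 and 4.07 TPM in NC and at 3.79 and 2.46 TPM in the sh-ZNF217-labelled libraries. The values were interleaved. The log2 fold change was -0.12 (standard error 0.26, limma adjusted p = 0.792), with a 95% interval of -0.76 to 0.53. The interval thus included changes beyond the fold minimum in both directions. Leaving out NC replicate 2 turned the sign of the fold change (0.09), as did leaving out sh-ZNF217 replicate 2 (0.12). The abundant retinoid X receptor of these cells was RXRA, at 82.1 ± 5.77 TPM in NC and 78.7 ± 5.09 TPM in the sh-ZNF217-labelled libraries (SD, n = 2 per group). RXRB contributed 3.18% and 4.96% of the summed TPM of the RXR genes in NC and 4.79% and 2.88% in the sh-ZNF217-labelled libraries. RXRB overlaps 361 exon bases of SLC39A7 on the opposite strand, which makes its level uncertain, as it is not known whether counting used strand.

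**Figure D4:**
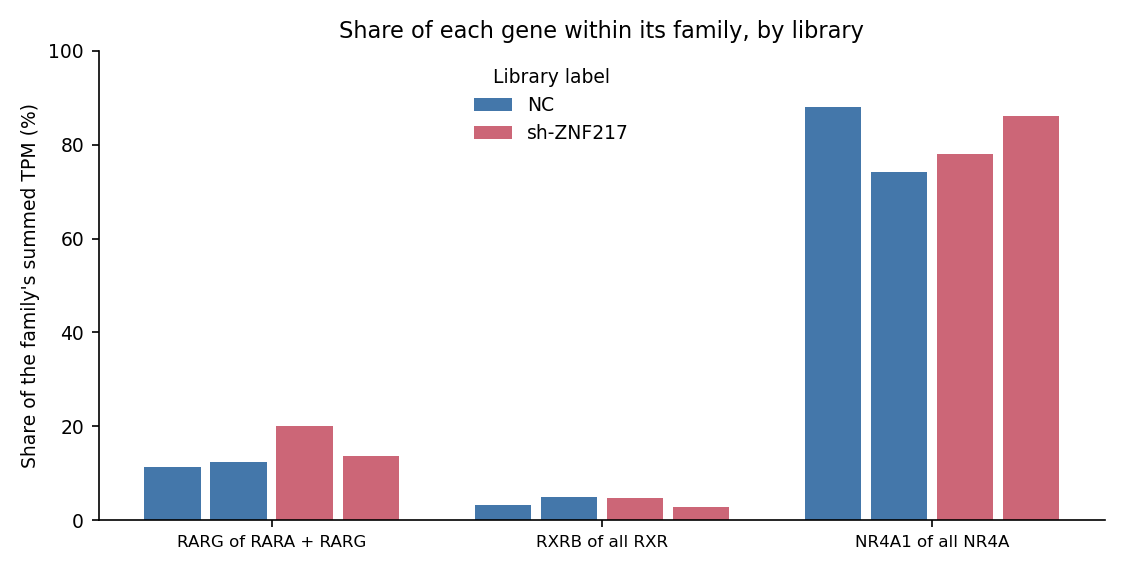
Share of a gene in the summed TPM of its family, in percent from 0, with a bar for each library in the order NC replicate 1 and 2 (blue) and sh-ZNF217 replicate 1 and 2 (red). RARG goes from 11.4% and 12.4% to 20.02% and 13.8% of RARA plus RARG, and RXRB stays between 2.88% and 4.96% of the RXR genes.

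VDR, which carries the vitamin D signal, was at 30.5 TPM in both NC libraries and at 33.7 and 34.4 TPM in the sh-ZNF217-labelled libraries. The groups did not overlap, but the difference was small, with a log2 fold change of 0.15 (standard error 0.07, limma adjusted p = 0.199). The 95% interval ran from -0.03 to 0.33, a change of TPM + 1 of -1.88% to 26.1%. NR3C1, the receptor of cortisol and of the drug dexamethasone, was at 27.1 and 25.5 TPM in NC and at 30.3 and 32.9 TPM in the sh-ZNF217-labelled libraries. These groups did not overlap either. The log2 fold change was 0.26 (standard error 0.09, limma adjusted p = 0.101), and the 95% interval of 0.04 to 0.47 corresponded to 2.80% to 38.6%. Its unadjusted p of 0.0278 was the smallest of the members after RARG. Leaving out a library moved VDR between 0.14 and 0.17 and NR3C1 between 0.20 and 0.31, all without a call.

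None of the NR4A receptors was called. NR4A1, also known as NUR77, was at 12.3 TPM in both NC libraries and at 8.91 and 15.97 TPM in the sh-ZNF217-labelled libraries, which thus lay on either side of NC. The log2 fold change was -0.03 (standard error 0.25, 95% interval -0.67 to 0.60, limma adjusted p = 0.943). Leaving out sh-ZNF217 replicate 1 gave 0.35, and leaving out replicate 2 of that group gave -0.42. NR4A2, also known as NURR1, was at 1.57 and 4.202 TPM in NC and at 2.25 and 2.09 TPM in the sh-ZNF217-labelled libraries, so that the NC libraries enclosed the others. Its log2 fold change of -0.20 (standard error 0.36, 95% interval -1.11 to 0.70, limma adjusted p = 0.734) turned to 0.31 without NC replicate 2. NR4A3, also known as NOR1, was at 0.101 and 0.0593 TPM in NC and at 0.274 and 0.502 TPM in the sh-ZNF217-labelled libraries. It did not overlap between the groups but stayed below the 1 TPM filter throughout. With no filter its log2 fold change of TPM + 1 was 0.36 (standard error 0.21, limma adjusted p = 0.322). NR4A1 made up 88.05% and 74.2% of the summed NR4A TPM in NC and 77.9% and 86.02% in the sh-ZNF217-labelled libraries. The sum itself was 13.9 and 16.5 TPM against 11.4 and 18.6 TPM, with overlapping groups. The antisense gene NR4A1AS overlaps 754 exon bases of NR4A1, so its level was uncertain for want of strand information.

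NCOR1, which bridges receptors without ligand to the histone deacetylase HDAC3, was the member with the smallest difference. It was at 44.5 and 45.4 TPM in NC and at 43.5 and 46.8 TPM in the sh-ZNF217-labelled libraries, and the latter enclosed NC. The log2 fold change was 0.00 (standard error 0.07, limma adjusted p = 0.972), with a 95% interval of -0.18 to 0.19, or -11.5% to 13.7% of TPM + 1. Its sign was without weight, as it turned with median-of-ratios scaling (-0.03) and when NC replicate 1 (-0.01) or sh-ZNF217 replicate 2 (-0.05) was left out. RARA, VDR and NCOR1 also share exon bases with genes on the opposite strand. The stretches were 556, 291 and 168 bases for RARA, 340, 321 and 188 bases for NCOR1, and 19 bases for VDR. The levels of RARA and NCOR1 were thus also uncertain for want of strand information.

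The other receptors of the human superfamily were examined beside the members. This list and those that follow were chosen with earlier results of these data known, so their shares of calls are descriptions only. Of 40 listed, 20 were matched and 16 tested, of which 1 was called higher and 3 lower (25%, beside 8.72% of all tested genes; median log2 fold change 0.06). PPARG, the fatty acid receptor of macrophages and fat cells, went from 25.4 ± 5.05 to 52.4 ± 2.68 TPM (SD, n = 2 per group; log2 fold change 1.03, limma adjusted p = 0.0113). NR1H3, the oxysterol receptor LXR alpha, went from 6.35 ± 0.934 to 2.83 ± 0.369 TPM (-0.94, limma adjusted p = 0.0294). THRA, a thyroid hormone receptor, and NR2F6, an orphan receptor, were lower by smaller steps (-0.50 and -0.54, limma adjusted p = 0.0208 and 0.0408). The value of THRA lay at the fold minimum, and its call was lost under 7 of 12 alternatives. These included the ones without mitochondrially encoded genes, with protein-coding genes alone and with plain empirical Bayes. THRA overlaps 473 exon bases of NR1D1 on the opposite strand, NR1D1 was at -0.60 without a call (limma adjusted p = 0.0815), and if counting ignored strand, reads in the shared stretch could have been given to either gene. THRA and NR1H3 lost their call without any of the 4 libraries (limma adjusted p = 0.0586 to 0.0853 and 0.0592 to 0.111), NR2F6 without NC replicate 1, sh-ZNF217 replicate 1 or replicate 2 (0.149, 0.131 and 0.125). None of the 4 calls was made without either sh-ZNF217-labelled library, where PPARG had limma adjusted p values of 0.0693 (without replicate 1) and 0.0586 (without replicate 2). The abundant RXRA had a log2 fold change of -0.06, and leaving out NC replicate 1 (0.01) or sh-ZNF217 replicate 1 (0.01) turned its sign.

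Receptor cofactors came next. Among 12 tested corepressors BCL6, a repressor that recruits NCOR1, was called (8.33%, beside 8.72% of all tested genes), rising from 11.5 ± 0.481 to 18.04 ± 1.25 TPM (SD, n = 2 per group; log2 fold change 0.61, limma adjusted p = 0.0219). This call was lost without NC replicate 1 (limma adjusted p = 0.0699), sh-ZNF217 replicate 1 (0.0714) or sh-ZNF217 replicate 2 (0.0962). HDAC3 was the most abundant of the corepressors not called (104 ± 1.84 to 109 ± 10.05 TPM, log2 fold change 0.06), and its sign turned without sh-ZNF217 replicate 1 (-0.03). The list's median was 0.07. Among 15 tested coactivators 3 rose (20%, beside 8.72% of all tested genes; median 0.10). KAT2B, the histone acetyltransferase PCAF, went from 17.5 ± 0.391 to 28.1 ± 0.458 TPM (SD, n = 2 per group; 0.66, limma adjusted p = 0.0101), NCOA3, a member of the p160 family of coactivators, from 11.8 and 11.1 TPM to 17.4 and 18.6 TPM (0.61) and NCOA7, a coactivator of another family, from 12.2 and 12.96 TPM to 18.2 and 19.8 TPM (0.55). PRMT1, an arginine methyltransferase, was at -0.49 (limma adjusted p = 0.0094), just short of the fold minimum, and was called lower with median-of-ratios scaling (-0.52) and when NC replicate 2 (-0.53) or sh-ZNF217 replicate 2 (-0.54) was left out. The calls of KAT2B, NCOA3 and NCOA7 were lost without sh-ZNF217 replicate 1 (limma adjusted p = 0.0606, 0.0749 and 0.0774) or replicate 2 (0.0561, 0.0891 and 0.104), those of NCOA3 and NCOA7 without NC replicate 2 (0.0596 and 0.0532), and that of NCOA7 without NC replicate 1 (0.0812).

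Genes that supply or respond to retinoic acid were examined next. Of 10 tested genes of retinoid transport and metabolism RETSAT and RDH10 rose (20%, beside 8.72% of all tested genes; median 0.37). RETSAT, which saturates retinol, went from 16.3 and 17.3 TPM to 28.5 and 28.8 TPM (log2 fold change 0.74, limma adjusted p = 0.00835). RDH10, which oxidizes retinol to retinal, went from 9.53 and 10.5 TPM to 19.3 and 17.4 TPM (0.81, limma adjusted p = 0.0127). Both stood clear of NC, but both calls were lost without sh-ZNF217 replicate 1 (limma adjusted p = 0.0529 and 0.0711) or replicate 2 (0.0537 and 0.0554). FABP5, a carrier of fatty acids and retinoic acid, was the most abundant of those not called (347 ± 24.6 to 309 ± 3.99 TPM, SD, n = 2 per group; log2 fold change -0.16). Of 9 tested retinoic acid response genes TNFAIP2 alone was called (11.1%, beside 8.72% of all tested genes), at log2 fold change 0.51 (55.1 ± 2.86 to 79.1 ± 9.60 TPM, SD, n = 2 per group), and this value was under the minimum when NC replicate 2 (0.46) or sh-ZNF217 replicate 2 (0.39) was left out and with median-of-ratios scaling (0.48). The most abundant of the uncalled, the adhesion receptor ICAM1, was at 0.28 (limma adjusted p = 0.0405), and the list's median was 0.22. RARB, CYP26A1 and TGM2, classical targets of retinoic acid, had no matched row and were not analysed here.

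Of 13 tested genes of vitamin D metabolism and response 4 rose and 1 fell (38.5%, beside 8.72% of all tested genes; median 0.20). CYP2R1, a hydroxylase of vitamin D in the liver, rose from 24.5 ± 3.37 to 41.3 ± 0.882 TPM (SD, n = 2 per group; log2 fold change 0.74, limma adjusted p = 0.0136). THBD, the thrombin receptor thrombomodulin, rose from 19.4 and 19.6 TPM to 39.3 and 38.7 TPM (0.96, limma adjusted p = 0.00328) and kept its call under all 12 alternatives. SLC37A2, a sugar phosphate transporter of macrophages, rose from 11.6 ± 0.389 to 19.3 ± 0.595 TPM (SD, n = 2 per group; 0.69), and SPP1, osteopontin, from 1.19 and 3.54 TPM to 36.7 and 34.5 TPM (3.54). SRGN, a granule proteoglycan, fell from 3483 and 3479 TPM to 2530.2 and 2388 TPM (-0.50), a value at the fold minimum that was short of it without mitochondrially encoded genes (-0.47), with protein-coding genes alone (-0.49) and with sh-ZNF217 replicate 2 left out (-0.46). NINJ1 was the most abundant gene of the list without a call (0.05, and -0.06 without sh-ZNF217 replicate 2). CD14, a monocyte receptor that vitamin D is known to induce, was at 0.83 without a call (limma adjusted p = 0.0913), and CAMP, an antimicrobial peptide gene, at 0.26 (0.631). Lower without a call were CYP27B1 (-0.54, limma adjusted p = 0.134) and THEMIS2 (-0.39, 0.0241). CD14, CAMP, CYP27B1 and THEMIS2 were named after their values were seen. Of the 13 tested genes of the list, 10 had a log2 fold change above 0. The calls of CYP2R1 and SLC37A2 were lost without sh-ZNF217 replicate 1 (limma adjusted p = 0.0751 and 0.072) or replicate 2 (0.0674 and 0.0628). The count of 5 calls was 3 with sh-ZNF217 replicate 1 left out and 2 with sh-ZNF217 replicate 2 left out.

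Of 16 tested glucocorticoid response genes and chaperones 5 rose and 1 fell (37.5%, beside 8.72% of all tested genes; median 0.15). ANXA1, annexin A1, rose from 137 ± 1.74 to 381 ± 7.74 TPM (SD, n = 2 per group; log2 fold change 1.47, limma adjusted p = 0.000387), and SGK1, a kinase, from 24.9 ± 1.67 to 52.4 ± 4.54 TPM (1.04, limma adjusted p = 0.00488), and both kept their call under all 12 alternatives. TSC22D3, known as GILZ, rose from 9.74 ± 1.46 to 21.6 ± 0.368 TPM (SD, n = 2 per group; 1.08), and its call was lost without sh-ZNF217 replicate 1 (limma adjusted p = 0.0555) or replicate 2 (0.0537). DUSP1, a phosphatase of MAP kinases, rose from 3.72 ± 0.226 to 6.88 ± 1.22 TPM (SD, n = 2 per group; 0.73, limma adjusted p = 0.0482), a call lost under 8 of 12 alternatives. These included all 4 that left out a library (limma adjusted p = 0.0835 to 0.175), no filter (0.0574), median-of-ratios scaling (0.0519) and plain empirical Bayes (0.0712). THBD stands in this list too. MT2A, a metallothionein, fell from 175 ± 29.6 to 81.4 ± 13.03 TPM (SD, n = 2 per group; -1.10), and its call was lost without sh-ZNF217 replicate 1 (-0.93, limma adjusted p = 0.0625). FKBP5, a widely used readout of glucocorticoid action named after its value was seen, was at -0.06 (limma adjusted p = 0.661). PTGES3, a chaperone of the receptor, was the most abundant gene not called (-0.17). Short of the fold minimum were FKBP4 (-0.496, limma adjusted p = 0.00807), MT1X (-0.47, 0.0152) and, in the other direction, NFKBIA (0.45, 0.00907). FKBP4, MT1X and NFKBIA were named after their values were seen.

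The immediate early genes are induced by the same signals as the NR4A genes. They held the largest share of calls among the 9 lists examined beside the members, though a smaller one than the myeloid markers (53.3%). Since the lists were chosen with earlier results of these data known, this ranking is a description only. Of 18 tested immediate early genes 9 rose (50%, beside 8.72% of all tested genes), with a median log2 fold change of 0.52. The 95% intervals of NR4A1 and NR4A2 given above include that median, but also no change and a fall of the same size. Both estimates were negative (-0.03 and -0.20), and NR4A3 was not tested. JUN, a subunit of the AP-1 factor, went from 47.4 and 49.98 TPM to 105 and 115 TPM (log2 fold change 1.16, limma adjusted p = 0.00203). BTG2, an antiproliferative factor, went from 12.1 and 13.2 TPM to 28.02 and 28.1 TPM (1.09), and ZFP36, which destabilizes inflammatory mRNAs, from 27.4 and 27.2 TPM to 47.3 and 45.5 TPM (0.74). KLF6, a zinc finger factor, was at 0.63, FOS, a partner of JUN, at 0.60 and ATF3, a stress factor, at 1.17, all called. JUN, BTG2, ZFP36 and KLF6 kept their call under all 12 alternatives. FOS lost its call without sh-ZNF217 replicate 1 (limma adjusted p = 0.0662) or replicate 2 (0.0632), and ATF3 without sh-ZNF217 replicate 1 (0.0504). MCL1, a survival factor, was the most abundant gene not called (0.11). The remaining calls were EGR2 (1.54, at 0.942 and 0.181 TPM in NC), IER3 (0.97) and DUSP1 (0.73), which is counted in the glucocorticoid list too. EGR1 (0.02) and FOSB (-0.04), named after their values were seen, did not pass. The count of 9 calls was 4 with sh-ZNF217 replicate 1 left out and 5 with sh-ZNF217 replicate 2 left out.

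CREB and MEF2 family factors were examined last, together with cofactors and kinases that act on them. Some of these factors are known to switch on NR4A1 transcription. Of 13 tested 3 rose and 1 fell (30.8%, beside 8.72% of all tested genes; median 0.20). PRKACB, a catalytic subunit of the cyclic AMP dependent kinase, went from 9.03 and 6.88 TPM to 23.4 and 24.2 TPM (log2 fold change 1.48, limma adjusted p = 0.00536), and MEF2D fell from 71.0 ± 2.04 to 45.5 ± 2.76 TPM (SD, n = 2 per group; -0.63). Both calls held under all 12 alternatives. MEF2C was at 0.62 and CREM, a CREB family factor, at 0.57 (limma adjusted p = 0.0217 and 0.0376). MEF2C lost its call without NC replicate 1 (0.0648), sh-ZNF217 replicate 1 (0.0635) or replicate 2 (0.0933), and CREM without NC replicate 2 (0.0685), sh-ZNF217 replicate 1 (0.108) or replicate 2 (0.147). PRKACA was the most abundant gene not called (-0.19). The count of 4 calls was 2 with sh-ZNF217 replicate 1 left out and 2 with sh-ZNF217 replicate 2 left out.

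**Figure D5:**
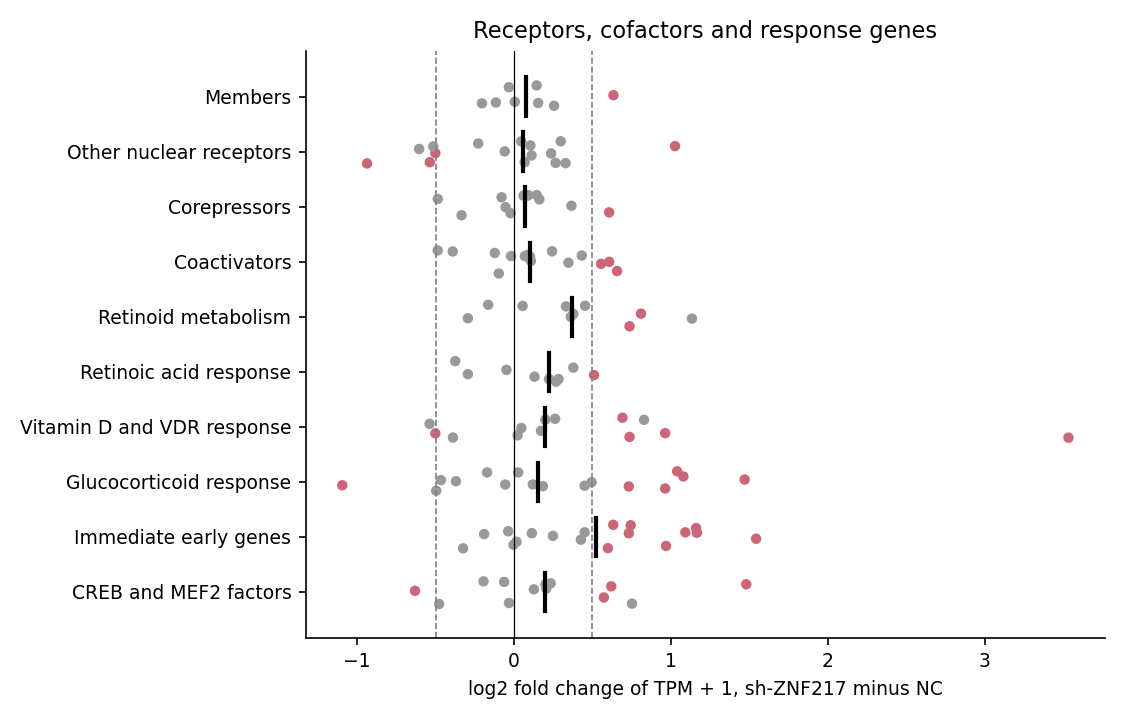
Log2 fold change of TPM + 1, sh-ZNF217-labelled libraries minus NC, for the tested genes of 10 lists, with red points for called genes, points spread vertically only for legibility, a black bar at each list's median and dashed lines at -0.5 and 0.5. The members have a median of 0.07 with 1 red point, and the immediate early genes a median of 0.52 with 9.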

How the data were processed

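Total RNA of 4 U937 libraries was made into TruSeq libraries per the labels. The authors filtered reads and aligned them with HISAT2 (version 2.0.5, submitters' processing notes) to hg38. The sources used here do not give the quantifier, the annotation release or the use of strand. The study named its measure FPM, which is not scaled by length. The table's header names no unit, and the deposited values were read as TPM because columns of non-whole values sum to nearly 1000000 and do not grow with exon length (slope of log2 mean on log2 length -0.184 over 10909 protein-coding genes). Each gene had a sum of at least 0.800 TPM. TPM keeps no depth, so no counting interval could be given. Column names were matched to labels by NC or ZNF and replicate number, which rests on there being only 2 groups.

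Symbols came from GENCODE 44 (hg38) by Ensembl identifier (16143 of 17656). Values were log2(TPM + 1), which understates changes of low genes. Genes at 1 TPM or more in 2 or more libraries (14582) entered a limma fit (version 3.58.1, R 4.3.3; group alone, trended and robust empirical Bayes), with Benjamini-Hochberg adjustment over all of them. Calls needed a log2 fold change beyond 0.5 either way and an adjusted p below 0.05. The script was tested on simulated data. Of annotated tested genes, 53.1% share exon bases with another gene. Alternatives changed the pseudocount (0.1), filter, scaling, gene set, moderation, block and libraries. Figures used matplotlib 3.10.9.

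The members and lists were chosen with earlier results of these data known. Named genes were all members, ZNF217, up to 6 called genes per list with the smallest p, the most abundant gene not called, and the 3 genes nearest to a called member.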

Additional observations from a re-analysis of the deposited data

How the results depend on the processing

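No member was called lower under any of the 12 alternatives, and RARG was the member called higher under the 6 that kept its call. RARG kept its direction throughout but was not called with plain empirical Bayes (0.63, limma adjusted p = 0.065), with a replicate block (0.63, 0.0684) or without any library (0.52 to 0.75), so members called higher numbered 0 there. Replicate numbers were only shared numbers (correlation of deviations of same-numbered libraries -0.00534), and the block left 749 higher and 300 lower of all tested genes. Among other named genes the block ended the calls of NR2F6 (limma adjusted p = 0.0604), CREM (0.057) and DUSP1 (0.0773). Of 94 values of members, 9 reversed: RARA (-0.052 to 0.34 over left-out libraries), RXRB (-0.35 to 0.12), NR4A1 (-0.42 to 0.35, and 0.000214 without mitochondrially encoded genes), NR4A2 (-0.71 to 0.31) and NCOR1 (-0.047 to 0.057, and -0.028 with median-of-ratios scaling). Among other named genes HDAC3 reversed without sh-ZNF217 replicate 1 (-0.033 to 0.15 over left-out libraries), NINJ1 without sh-ZNF217 replicate 2 (-0.059 to 0.15) and RXRA without NC replicate 1 or sh-ZNF217 replicate 1 (-0.13 to 0.012). All called genes numbered 1272, 723 with plain empirical Bayes and 461 to 1041 without a library. With plain empirical Bayes 0 other receptors, 0 corepressors, 0 retinoic acid response genes, 3 vitamin D genes and 2 CREB and MEF2 genes were called. The same setting left 2 coactivators, 2 retinoid metabolism, 4 glucocorticoid and 6 immediate early genes. It ended the calls of PPARG, NR1H3, THRA, NR2F6, BCL6, NCOA7, TNFAIP2, CYP2R1, SRGN, MT2A, DUSP1, FOS, MEF2C and CREM. With median-of-ratios scaling 0 retinoic acid response genes were called. Without a library the calls were 0 to 2 for other receptors, 0 to 1 for corepressors, 0 to 2 for coactivators, 0 to 2 for retinoid metabolism, 0 to 1 for retinoic acid response, 2 to 5 for vitamin D, 4 to 6 for glucocorticoid, 4 to 7 for immediate early and 2 to 3 for CREB and MEF2 genes. A left-out library leaves a group with 1, whose spread is taken from the other. Causes were not tested. With a filter at 5 TPM RXRB and NR4A2 were not tested. Depth was unknown, so no counting error could be given.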

Other observations

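The genes whose pattern over the 4 libraries was most like that of RARG were HBP1, PCNX2 and IL18, out of 10198 tested genes with a symbol and a mean of at least 5 TPM. Likeness was the Euclidean distance between log2(TPM + 1) values centred on each gene's mean, and it was 0.0495 for HBP1, 0.0498 for PCNX2 and 0.0521 for IL18. HBP1, a transcriptional repressor that restrains the cell cycle, was at 19.97 and 20.2 TPM in NC and at 33.6 and 29.1 TPM in the sh-ZNF217-labelled libraries (log2 fold change 0.61). IL18, a cytokine of macrophages, was at 63.2 and 66.02 TPM in NC and at 112 and 97.1 TPM in the sh-ZNF217-labelled libraries (0.68). PCNX2 was at 3.73 and 4.07 TPM against 7.03 and 5.77 TPM (0.59, not called). All 3 were, as RARG was, highest in sh-ZNF217 replicate 1. With 4 libraries in 2 groups such likeness is a description of levels and carries no p.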
